A study of Mus musculus with 8 samples.

Results

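Notch receptors, their ligands and their transcriptional targets were examined in mouse undifferentiated pleomorphic sarcoma (UPS), a soft tissue tumour of mesenchymal cells. The genes were 10, taken by symbol from the 26667 rows of the count table: the receptors Notch1, Notch2 and Notch4, the ligands Dll1, Dll4, Jag1 and Jag2, and the targets Hes1, Hey1 and Heyl. All 10 passed the filter on low counts. A further 58 genes of the pathway, among them the receptor Notch3, were read from the same fit as context.

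Notch receptors are single-pass membrane proteins that are activated by Delta-like (Dll) or Jagged (Jag) ligands on a neighbouring cell. Ligand binding exposes the receptor to cleavage by an ADAM protease and then by γ-secretase, and the released intracellular domain joins the DNA-binding protein RBPJ to switch on Hes and Hey genes, which encode transcriptional repressors. In blood vessels Dll4 and Notch4 are mainly endothelial genes and Heyl is a known target in mural cells, while in skeletal muscle Dll1 and the Notch targets are known for their part in keeping satellite cells undifferentiated.

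Tumours were raised in the hind limb by injecting an adenovirus that expresses Cre recombinase into the muscle of mice of at least 8 weeks of age. KP mice carried Trp53 fl/fl among their Cre-dependent alleles, and KPH2 mice carried the same alleles together with Epas1 fl/fl, which removes HIF-2α, an oxygen-regulated transcription factor. All alleles of the KP mice were thus shared by both groups. Because Cre was delivered by a local virus, host vessels, leukocytes and muscle that were not infected kept Epas1, and a bulk tumour library holds their RNA as well. Tumours were collected at 7 weeks after Cre or at maximal size. RNA from fixed, paraffin-embedded sections was sequenced, 1 library per tumour, from 4 KP tumours (KP 5 to KP 8) and 4 KPH2 tumours (KPH2 1 to KPH2 4). The authors excluded a knockout tumour as technically aberrant. KPH2 1 is the tumour missing from their smaller table of transformed values, so the main comparison was of KP 5 to KP 8 with KPH2 2 to KPH2 4, and the group difference of each Notch gene named is also given with KPH2 1.

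Total counts ran from 6463221 to 13155510 per tumour. Levels are given as CPM, counts scaled to 1e+06 of the TMM library size over all 8 tumours. Epas1 was counted at 59.2, 83.2, 86.9 and 84.1 CPM in the KP tumours and at 32.6, 53.4, 37.7 and 42.5 CPM in KPH2 1 to KPH2 4, so the groups did not overlap. KPH2 2 to KPH2 4 averaged 0.569 of the KP mean, with an edgeR adjusted p of 0.0742 (log2 fold change -0.81, and -0.91 with KPH2 1, where the adjusted p was 0.117), and 377 to 593 reads of Epas1 remained in each KPH2 tumour. The 8 mesenchymal markers of the labelled tissue were all counted, at a summed 17729 to 42041 CPM in KP tumours and 21563 to 29993 CPM in KPH2 tumours. The 5 keratinocyte markers summed to 5.36 to 14.0 CPM in KP tumours and 6.30 to 7.61 CPM in KPH2 tumours. Krt5 and Krt14 were at 0 in every tumour, and the sum came from Krt10, Dsp and Trp63. Of the 8 mesenchymal markers, 6 were lower by fit in KPH2 2 to KPH2 4 and 1 passed the edgeR test. This was Pdgfra, a growth factor receptor of mesenchymal cells, at 720.5 to 1494 CPM in KP tumours, 639 CPM in KPH2 1 and 224 to 274 CPM in KPH2 2 to KPH2 4 (edgeR adjusted p = 0.0183, and 0.160 with KPH2 1). The part of this marker shift in the Notch differences was not tested.

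The question here was whether Notch components differed between tumours of mice with and without the floxed Epas1 allele. Heyl, Jag1 and Dll1 were on average higher in KPH2 2 to KPH2 4 than in KP tumours, by 5.85-fold, 1.93-fold and 2.24-fold, and Notch4 and Dll4 were at 0.463 and 0.532 of their KP means. By the quasi-likelihood test of edgeR 0 of the 10 genes reached an adjusted p under 0.05, against 1.96% of the 14867 genes tested. At an unadjusted p under 0.05 there were 5 of the 10 genes, against 17.8% of all genes. These were 3 higher (8.5% of all genes) and 2 lower (9.26%). By fitted fold change 7 of the 10 were higher in KPH2 tumours, against 48% of all genes. The groups did not overlap for 3 of the 10 (Notch4, Jag1 and Heyl), against 16.9% of all genes. DESeq2 called 2 of the 10, Heyl and Notch4, against 7.2% of the genes it gave an adjusted p, and limma on the authors' transformed values called 1, Heyl, against 2.17% of all genes. The median size of the log2 fold change was 0.59 over the 10 genes and 0.27 over all genes, with no test of that difference. With KPH2 1 included, edgeR called 0 of the 10 (0.00675% of 14805 genes), 3 had an unadjusted p under 0.05 (14.7% of all genes), 1 of them higher (6.65%) and 2 lower (8.02%), and only Notch4 still had groups that did not overlap (8.15% of all genes). By fit 6 of the 10 were then higher, against 50.9% of all genes. DESeq2 again called Heyl and Notch4 over the 8 tumours, where it called 4.06% of genes.

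**Figure D1:**
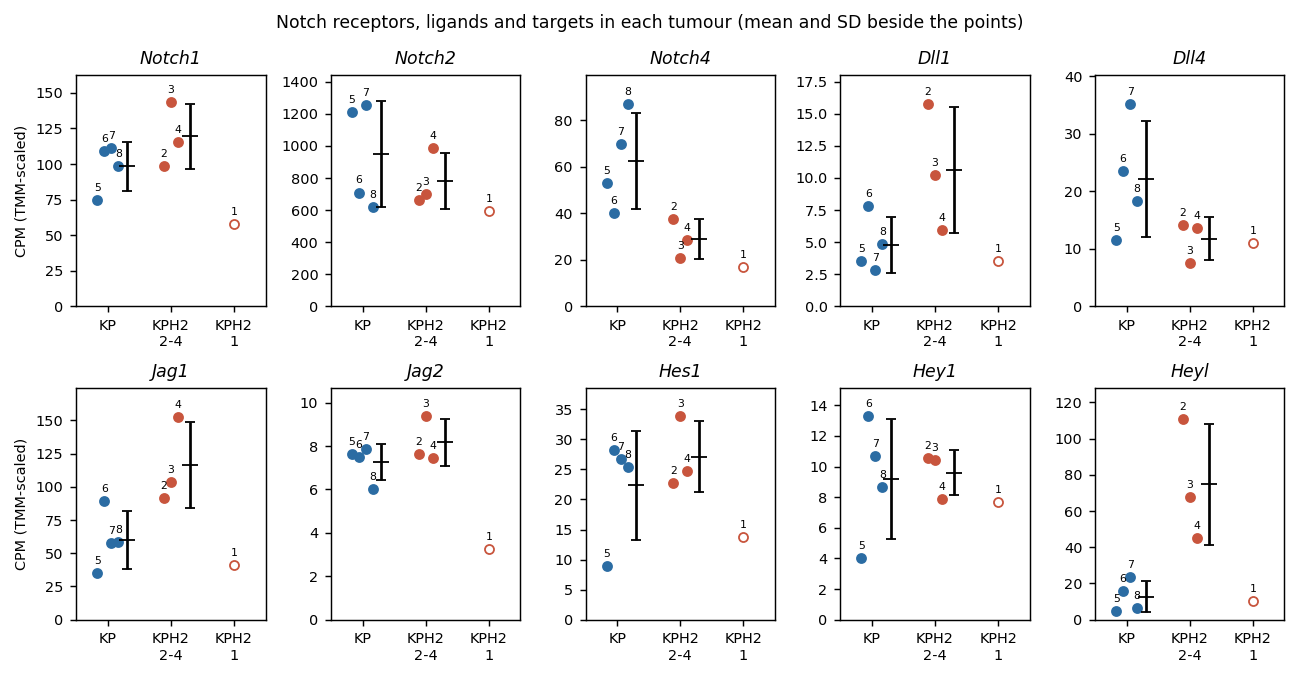
Level of each of the 10 Notch genes in every tumour, in CPM, as numbered points with the mean and SD of KP 5 to KP 8 and of KPH2 2 to KPH2 4 beside them and KPH2 1 drawn apart as an open circle. The 3 KPH2 tumours sit above all KP tumours for Heyl (45.2 to 111 against 4.98 to 23.7 CPM) and below them for Notch4 (20.6 to 37.5 against 40.0 to 87.2 CPM), while Hes1 and Hey1 overlap.

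Among the receptors, Notch4 (Entrez Gene 18132) was the one whose groups did not overlap, with lower counts in KPH2 tumours. It encodes a receptor best known from endothelium and lies on chromosome 17, from 34564286 to 34588543 of GRCm38. Its level was 53.0, 40.0, 70.0 and 87.2 CPM in KP 5 to KP 8, 17.1 CPM in KPH2 1, and 37.5, 20.6 and 28.7 CPM in KPH2 2 to KPH2 4. Every KPH2 tumour was below every KP tumour, KPH2 1 being the lowest. Means were 62.5 ± 20.5 (SD, n = 4) for KP and 29.0 ± 8.46 CPM (SD, n = 3) for KPH2 2 to KPH2 4. The fitted log2 difference was -1.11 (SE 0.31), with an edgeR adjusted p of 0.111 and an unadjusted p of 0.00611. DESeq2 gave an adjusted p of 0.0167. Exact 2-sided permutation over the 35 ways to split 7 tumours gave p = 0.0571, where 0.0286 is the smallest possible. With KPH2 1 the log2 fold change was -1.27 (SE 0.31, edgeR adjusted p = 0.152), and the exact permutation p was 0.0286.

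Notch1 (Entrez Gene 18128), a receptor used in most tissues, lies on chromosome 2 from 26457902 to 26503822. Its counts were 74.4, 109.5, 111 and 98.3 CPM in KP 5 to KP 8, 57.9 CPM in KPH2 1, and 98.7, 144 and 116 CPM in KPH2 2 to KPH2 4. The groups overlapped, and KPH2 1 was again the lowest. The log2 fold change was 0.28 (SE 0.19, edgeR adjusted p = 0.504) over the 7 tumours and 0.08 (SE 0.26, edgeR adjusted p = 0.918) over all 8. A counted long non-coding gene, 0610009E02Rik, shares 1489 bases with Notch1, and whether the counting used strand is not given in the sources used here.

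Notch2 (Entrez Gene 18129; chromosome 3, 98013538 to 98150367) was the most abundant receptor. Its counts were 1212, 709.6, 1255 and 621 CPM in KP 5 to KP 8, 596 CPM in KPH2 1, and 661, 701 and 984 CPM in KPH2 2 to KPH2 4. KP 5 and KP 7 were the highest, and the other KP tumours lay within the range of the 4 KPH2 tumours. The fitted log2 fold change was -0.28 (SE 0.30, edgeR adjusted p = 0.675), and -0.37 with KPH2 1 (SE 0.27, edgeR adjusted p = 0.568).

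Levels of different genes were compared per kilobase of the longest GENCODE transcript linked to RefSeq, as CPM per kilobase. On this scale the mean level of Notch2 was 90.4 ± 31.4 in KP tumours (SD, n = 4), followed by Hes1 at 15.2 ± 6.15, Jag1 at 10.7 ± 3.91, Notch1 at 10.4 ± 1.79 and Notch4 at 9.49 ± 3.11. Dll4 (5.92 ± 2.68), Hey1 (3.78 ± 1.62), Heyl (2.82 ± 1.92), Jag2 (1.42 ± 0.162) and Dll1 (1.33 ± 0.610) were lower. Only Notch2 stood clear of its neighbour, since the KP tumours' ranges overlapped for each later pair in this order. In KPH2 2 to KPH2 4 the order was headed by Notch2 at 74.5 ± 16.8 (SD, n = 3), Jag1 at 20.7 ± 5.76, Hes1 at 18.5 ± 4.02 and Heyl at 16.5 ± 7.38, and Notch4 stood at 4.39 ± 1.28.

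Jag1 (Entrez Gene 16449), a ligand made by endothelial, mural and many tumour cells, lies on the minus strand of chromosome 2 from 137081451 to 137116520. It was counted at 35.5, 89.0, 57.7 and 58.6 CPM in KP 5 to KP 8, at 41.1 CPM in KPH2 1, and at 91.7, 104 and 153 CPM in KPH2 2 to KPH2 4. KPH2 2 to KPH2 4 were all above the KP tumours, KPH2 2 only narrowly above KP 6, whereas KPH2 1 lay near the lowest KP tumour. Means were 60.2 ± 22.0 (SD, n = 4) for KP and 116 ± 32.3 CPM (SD, n = 3) for KPH2 2 to KPH2 4. The log2 fold change of 0.95 (SE 0.31) had an edgeR adjusted p of 0.157 and an exact 2-sided permutation p of 0.0571. With KPH2 1 it was 0.70 (SE 0.40, edgeR adjusted p = 0.451; exact permutation p = 0.229).

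Dll4 (Entrez Gene 54485; chromosome 2, 119325784 to 119335666), the ligand of endothelial tip cells, was counted at 11.5, 23.5, 35.3 and 18.4 CPM in KP 5 to KP 8, at 11.0 CPM in KPH2 1, and at 14.2, 7.51 and 13.6 CPM in KPH2 2 to KPH2 4. KP 5 lay within the KPH2 range and the other KP tumours above it. Its log2 fold change was -0.90 (SE 0.39, edgeR adjusted p = 0.281; exact permutation p = 0.171), and -0.93 with KPH2 1 (SE 0.35, edgeR adjusted p = 0.277; exact permutation p = 0.0857). A counted long non-coding gene, Gm14207, shares 414 bases with Dll4.

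Dll1 (Entrez Gene 13388; chromosome 17, 15367354 to 15376932), a ligand of the muscle lineage among others, was rare. Tumour by tumour it was counted at 3.56, 7.78, 2.82 and 4.83 CPM in KP 5 to KP 8, at 3.52 CPM in KPH2 1, and at 15.8, 10.2 and 5.97 CPM in KPH2 2 to KPH2 4, from 19 to 175 reads per tumour. KPH2 2 and KPH2 3 were above all KP tumours, and KPH2 4 and KPH2 1 were not. In edgeR the log2 fold change was 1.17 (SE 0.43, edgeR adjusted p = 0.201; exact permutation p = 0.114), and 0.90 with KPH2 1 (SE 0.49, edgeR adjusted p = 0.429; exact permutation p = 0.257).

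Jag2 (Entrez Gene 16450; chromosome 12, 112907803 to 112929812), the other Jagged ligand, was the steadiest of the 10 among KP tumours. It was counted at 7.65, 7.50, 7.86 and 6.04 CPM in KP 5 to KP 8, at 3.28 CPM in KPH2 1, and at 7.65, 9.41 and 7.44 CPM in KPH2 2 to KPH2 4. The groups overlapped, and KPH2 1 alone was low. The log2 fold change was 0.17 (SE 0.22, edgeR adjusted p = 0.742) over the 7 tumours and -0.065 (SE 0.32, edgeR adjusted p = 0.950) over all 8.

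Of the targets, Heyl differed by the largest fold among the 10 genes. It encodes a Hey-family repressor (Entrez Gene 56198) and lies on chromosome 4 from 123233556 to 123249870. Tumour by tumour it was counted at 4.98, 15.8, 23.7 and 6.57 CPM in KP 5 to KP 8, at 10.2 CPM in KPH2 1, and at 111, 67.8 and 45.2 CPM in KPH2 2 to KPH2 4. KPH2 2 to KPH2 4 were all above the KP tumours, while KPH2 1 lay in the middle of them. Means were 12.8 ± 8.73 CPM (SD, n = 4) in KP, 74.7 ± 33.5 CPM (SD, n = 3) in KPH2 2 to KPH2 4 and 58.6 ± 42.3 CPM (SD, n = 4) in KPH2 1 to KPH2 4. The fitted log2 fold change was 2.57 (SE 0.56), with an edgeR adjusted p of 0.0628, a DESeq2 adjusted p of 6.5e-05, a limma adjusted p of 0.0433 and an exact 2-sided permutation p of 0.0286, the smallest possible. With KPH2 1 it was 2.22 (SE 0.73, edgeR adjusted p = 0.234; DESeq2 adjusted p = 0.0225; exact permutation p = 0.0857). Leaving out 1 tumour at a time gave log2 fold changes from 2.17 to 3.06, with edgeR adjusted p-values from 0.0632 to 0.182.

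Hes1 (Entrez Gene 15205; chromosome 16, 30065357 to 30067796) is the target most widely read as a sign of Notch activity, though other pathways induce it too. It was counted at 8.91, 28.3, 26.7 and 25.4 CPM in KP 5 to KP 8, at 13.7 CPM in KPH2 1, and at 22.8, 33.8 and 24.7 CPM in KPH2 2 to KPH2 4. KP 5 and KPH2 1 were low, and the remaining tumours of both groups lay together. Its log2 fold change was 0.28 (SE 0.37, edgeR adjusted p = 0.749), and 0.09 with KPH2 1 (SE 0.38, edgeR adjusted p = 0.939).

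Hey1 (Entrez Gene 15213; chromosome 3, 8663359 to 8667038), a Hey-family repressor, was counted at 4.01, 13.3, 10.7 and 8.68 CPM in KP 5 to KP 8, at 7.67 CPM in KPH2 1, and at 10.5, 10.4 and 7.89 CPM in KPH2 2 to KPH2 4. The KPH2 tumours all lay within the KP range. In edgeR the log2 fold change was 0.08 (SE 0.38, edgeR adjusted p = 0.941), and the exact 2-sided permutation p was 0.857. With KPH2 1 it was 0.0029 (SE 0.34, edgeR adjusted p = 0.998). The fitted values of Hes1 and Hey1 depended on the endothelial marker score, and with it as a covariate they were 1.37 (edgeR adjusted p = 0.120) and 1.12 (edgeR adjusted p = 0.168) over the 7 tumours.

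**Figure D2:**
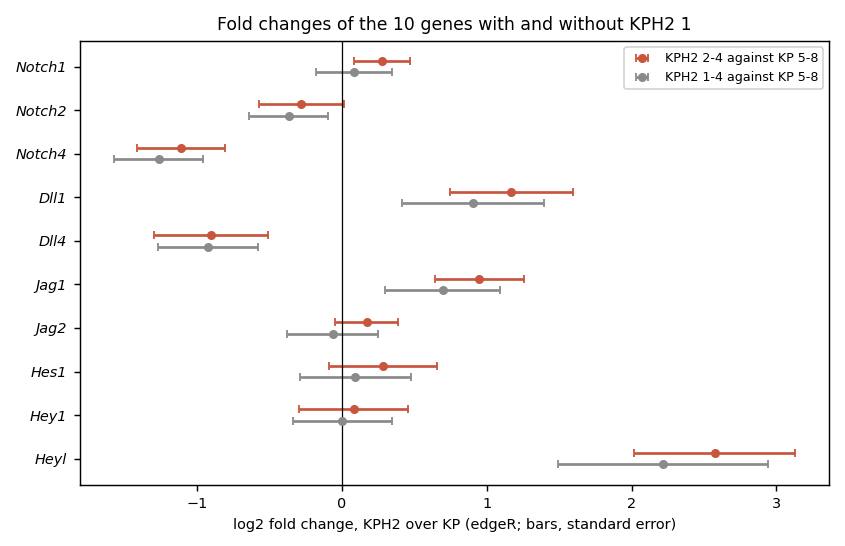
Log2 fold change of KPH2 over KP tumours for the 10 Notch genes, with 1 standard error to each side, from the edgeR fit of 7 tumours and from that of all 8. Heyl lies farthest to the right (2.57 and 2.22) and Notch4 farthest to the left (-1.11 and -1.27), and Jag2 is at 0.17 with 7 tumours and -0.065 with 8.

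The promoters of the genes were read because HIF-2α binds a short DNA core, ACGTG or GCGTG, and RBPJ the core TGGGAA. The 250 bases before the listed start were taken from RefSeq on GRCm38.p6 for 7 of the 10 genes, and Hes1, Hey1 and Heyl were not matched. The listed start lies at the outer bound of the gene for 5 of the 7, but 9 bases inside it for Notch4 and 317 bases inside it for Jag2, whose window is thus within the gene. TGGGAA was found on either strand in 0 of the 7, against 21.6% of 32851 promoters of the same length. The hypoxia core was found in 6 of the 7 (all but Notch1), against 38.6% of all promoters. The 7 windows were 56.0% to 87.2% G and C, and the median of all promoters was 52.4%. ACGTG also lies within the E-box CACGTG that other factors bind, but all 8 matches here were GCGTG or its complement CACGC. A match describes the letters only. The windows of Notch4 (plus strand, chr17:34564045-34564294) and Jag1 (minus strand, chr2:137116521-137116770) are shown as the receptor and the ligand whose groups did not overlap, 5′ to 3′ along the gene with the hypoxia core in capitals:
Notch4: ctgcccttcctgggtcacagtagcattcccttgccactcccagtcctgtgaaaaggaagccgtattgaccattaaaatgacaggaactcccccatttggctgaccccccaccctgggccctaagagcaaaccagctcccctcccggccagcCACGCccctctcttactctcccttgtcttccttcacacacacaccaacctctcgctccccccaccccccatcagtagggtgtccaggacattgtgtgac
Jag1: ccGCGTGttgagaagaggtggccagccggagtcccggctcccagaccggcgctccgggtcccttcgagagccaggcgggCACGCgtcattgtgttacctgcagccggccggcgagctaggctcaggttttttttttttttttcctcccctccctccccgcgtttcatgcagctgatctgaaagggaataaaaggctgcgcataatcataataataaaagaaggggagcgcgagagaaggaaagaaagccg
The match in Notch4 lay 99 to 95 bases before the listed start. Those in Jag1 lay 248 to 244 and 171 to 167 bases before it.

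The make-up of each class was computed within a tumour, as each gene's share of the length-scaled counts of the 4 receptors (Notch3 included), the 4 ligands or the 3 targets, so that library scaling cancels. Shares of a class sum to the whole, so they are not independent of each other. Notch2 made up 83.9%, 74.1%, 80.5% and 68.2% of the receptors in KP 5 to KP 8, 83.1% in KPH2 1, and 73.7%, 64.1% and 79.1% in KPH2 2 to KPH2 4, and exact permutation gave p = 0.457 without KPH2 1 and p = 0.743 with it. Notch2 was thus the main receptor transcript in every tumour. Notch3 made up 4.56%, 6.62%, 4.48% and 4.65% in KP 5 to KP 8, 4.17% in KPH2 1, and 7.45%, 18.3% and 6.90% in KPH2 2 to KPH2 4. Its share was larger in KPH2 2 to KPH2 4 than in any KP tumour, KPH2 4 only narrowly, and KPH2 1 had the smallest. The exact permutation p was 0.0286 (0.0524 after Benjamini-Hochberg adjustment over the 11 shares), and 0.229 with KPH2 1 (0.349 after adjustment).

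Dll4 made up 25.8%, 24.3%, 42.8% and 27.5% of the ligands in KP 5 to KP 8, 24.8% in KPH2 1, and 14.6%, 7.95% and 10.7% in KPH2 2 to KPH2 4. Jag1 made up 53.2%, 61.5%, 46.7% and 58.4% in KP 5 to KP 8, 61.6% in KPH2 1, and 62.8%, 73.4% and 80.1% in KPH2 2 to KPH2 4. For both ligands the 3 KPH2 tumours lay apart from the KP tumours, with Jag1 the larger share and Dll4 the smaller, and each had an exact 2-sided permutation p of 0.0286 (0.0524 after Benjamini-Hochberg adjustment over the 11 shares). With KPH2 1 the exact p was 0.0571 for Dll4 and 0.0286 for Jag1, each 0.157 after adjustment. For Jag1 the groups were then apart only narrowly, with KPH2 1 at 61.58% and KP 6 at 61.54%.

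Heyl made up 12.4%, 12.4%, 18.8% and 6.47% of the targets in KP 5 to KP 8, 15.3% in KPH2 1, and 55.2%, 35.4% and 33.2% in KPH2 2 to KPH2 4. Hes1, the main target transcript in KP tumours, made up 70.0 ± 5.24% (SD, n = 4) there and 48.5 ± 11.7% (SD, n = 3) in KPH2 2 to KPH2 4. The level of Hes1 itself was 22.3 ± 9.02 and 27.1 ± 5.91 CPM in the same tumours, so a smaller share does not mean a lower level. KPH2 1 had a Hes1 share of 63.3%, just below the lowest KP tumour at 65.4%. The exact permutation p for the share of Hes1 was 0.0286 with 7 and with 8 tumours (0.0524 and 0.157 after adjustment). The exact permutation p for the share of Heyl was 0.0286 (0.0524 after adjustment). With KPH2 1, whose share of Heyl was within the KP range, it was 0.0571 (0.157 after adjustment).

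**Figure D3:**
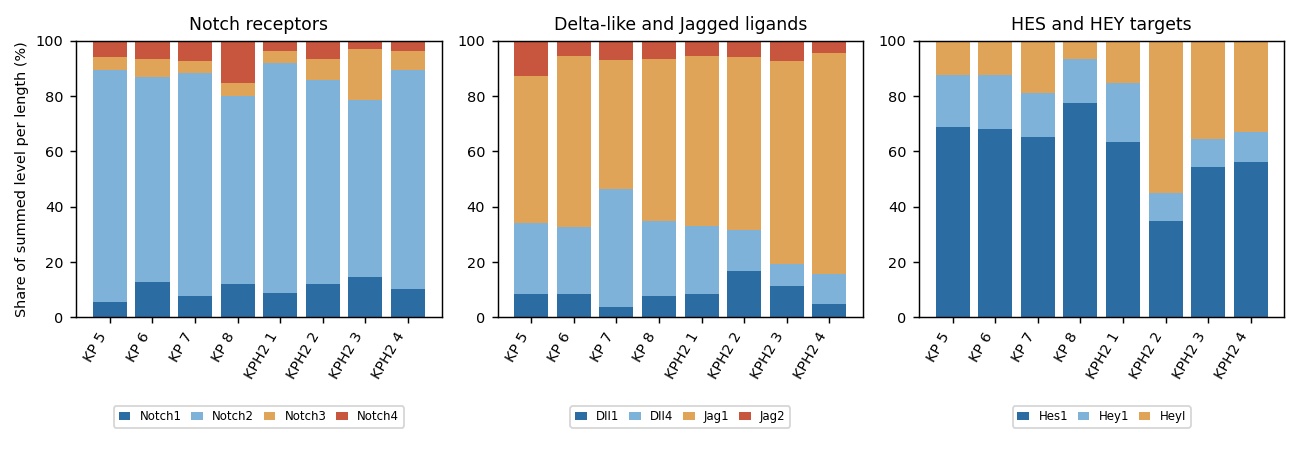
Share of each gene in the length-scaled counts of the 4 Notch receptors, 4 ligands and 3 targets within each tumour, as stacked bars in percent. Notch2 is 64.1% to 83.9% of the receptors throughout, and Heyl is 33.2% to 55.2% of the targets in KPH2 2 to KPH2 4 against 6.47% to 18.8% in the KP tumours.

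Of the other 58 genes of the pathway, 50 passed the filter on low counts, of which 24 had a fitted level higher in KPH2 2 to KPH2 4 and 26 lower. Their median log2 fold change was -0.03. In edgeR 1 of the 50, Hes6, had an adjusted p under 0.05 and was higher, as were 1.24% of all genes. At an unadjusted p under 0.05 there were 3 higher and 4 lower, against 8.5% and 9.26% of all genes. DESeq2 called 2 of the 51 to which it gave an adjusted p, against 7.2% of all 16315 such genes. With KPH2 1 included edgeR called 0 (0.00675% of all genes), with 1 higher and 3 lower at an unadjusted p under 0.05, against 6.65% and 8.02%. Apart from Hes6 over the 7 tumours, these counts were smaller shares than those of all genes.

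Hes6, which encodes a Hes-family protein known to oppose Hes1 and to accompany differentiation of neurons and muscle, rose in KPH2 2 to KPH2 4 but not in KPH2 1 (Entrez Gene 55927; chromosome 1, 91411483 to 91414038). Tumour by tumour it was counted at 4.46, 5.80, 3.85 and 6.49 CPM in KP 5 to KP 8, at 3.20 CPM in KPH2 1, and at 35.1, 25.6 and 11.5 CPM in KPH2 2 to KPH2 4. The KP tumours and KPH2 1 were all low, and KPH2 4 was the lowest of the other KPH2 tumours. The log2 fold change was 2.22 (SE 0.37, edgeR adjusted p = 0.0303; exact permutation p = 0.0286). With KPH2 1 it was 1.87, with an edgeR adjusted p of 0.238, a DESeq2 adjusted p of 0.0384 and an exact permutation p of 0.171. The call was lost when any 1 of KP 5 to KP 8, KPH2 2 or KPH2 3 was left out (edgeR adjusted p from 0.0515 to 0.0978), with log2 fold changes from 1.84 to 2.35, and kept without KPH2 4 (0.0169). It was also lost with the endothelial marker score as a covariate, where the log2 fold change was 2.32 (edgeR adjusted p = 0.149), and with the mural score, where it was 1.77 (edgeR adjusted p = 0.301). With the skeletal muscle score the call was lost too, and the log2 fold change was 1.25 (edgeR adjusted p = 0.624). The fitted difference was thus smaller with the muscle score and of similar size in the other fits named.

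Tle4, a Groucho-type corepressor that Hes and Hey proteins recruit, was counted at 53.2, 35.4, 25.9 and 26.1 CPM in KP 5 to KP 8, at 21.2 CPM in KPH2 1, and at 11.8, 13.7 and 15.9 CPM in KPH2 2 to KPH2 4. Every KPH2 tumour was below every KP tumour. The fitted log2 fold change was -1.35 (SE 0.29), with an edgeR adjusted p of 0.0572 and a DESeq2 adjusted p of 0.000873. With KPH2 1 the edgeR adjusted p was 0.150 and the DESeq2 adjusted p was 0.00978.

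Notch3, the receptor of mural cells, was counted at 50.3, 48.4, 53.4 and 32.4 CPM in KP 5 to KP 8, at 22.9 CPM in KPH2 1, and at 51.0, 153 and 65.5 CPM in KPH2 2 to KPH2 4. KPH2 3 stood above the rest, and KPH2 2 lay within the KP range. Its log2 fold change was 0.96 (SE 0.37, edgeR adjusted p = 0.227), and 0.66 with KPH2 1 (edgeR adjusted p = 0.568). Without KPH2 3 it was 0.34 (edgeR adjusted p = 0.577), and with the mural marker score as a covariate 2.03 (edgeR adjusted p = 0.0957).

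Both Neuralized genes, whose products ubiquitinate Notch ligands, were among the 6 with the smallest p and had fitted differences of opposite sign. Neurl1a was counted at 13.7, 17.0, 9.93 and 15.5 CPM in KP 5 to KP 8, at 5.59 CPM in KPH2 1, and at 22.8, 34.3 and 16.3 CPM in KPH2 2 to KPH2 4. Neurl1b was counted at 13.8, 18.0, 12.3 and 15.2 CPM in KP 5 to KP 8, at 6.47 CPM in KPH2 1, and at 10.7, 7.81 and 10.7 CPM in KPH2 2 to KPH2 4. KPH2 1 was the lowest tumour for both, and only for Neurl1b were all KPH2 tumours below all KP tumours. In edgeR the log2 fold change was 0.80 for Neurl1a (edgeR adjusted p = 0.195) and -0.61 for Neurl1b (edgeR adjusted p = 0.197). With KPH2 1 these were 0.49 (edgeR adjusted p = 0.673) and -0.73 (edgeR adjusted p = 0.218).

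Nrarp, a Notch target that feeds back on the nuclear complex, was counted at 4.83, 10.8, 12.2 and 7.85 CPM in KP 5 to KP 8, at 4.56 CPM in KPH2 1, and at 5.04, 3.90 and 4.96 CPM in KPH2 2 to KPH2 4. KP 5 lay within the KPH2 range and the other KP tumours above it, as for Dll4. The log2 fold change was -0.93 (edgeR adjusted p = 0.208), and -0.94 with KPH2 1 (edgeR adjusted p = 0.227). Thus Nrarp and Heyl, both targets of the pathway, had fitted differences of opposite sign.

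The enzymes that process the receptors had small fitted differences. The 10 proteases that were tested, among them Adam10, Adam17 and the subunits of γ-secretase, had log2 fold changes from -0.25 to 0.07, and none passed the edgeR test. The 5 genes for glycosylation of the receptor ranged from -0.50 to 0.21, the 8 of the nuclear complex, Rbpj included, from -0.37 to 0.35, and the 8 for receptor turnover from -0.28 to 0.31. The 10 corepressors ranged from -1.35, which was Tle4, to 0.46.

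**Figure D4:**
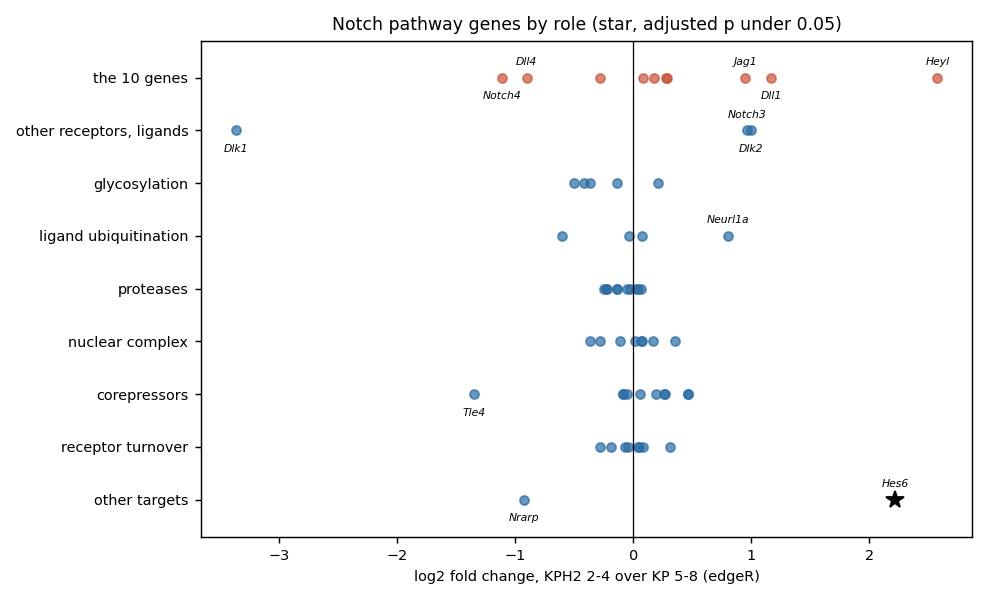
Log2 fold change of KPH2 2 to KPH2 4 over KP tumours for the 10 genes and the 50 other tested genes of the Notch pathway, grouped by role, from the edgeR fit of 7 tumours. Hes6, at 2.22 and drawn as a star, is the point past an adjusted p of 0.05, and the proteases lie between -0.25 and 0.07.

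Several of these genes are made chiefly by one cell type, and in bulk tumours fewer cells of a type and less RNA per cell cannot be told apart. The 14 endothelial markers were all tested, 2 had a higher and 12 a lower fitted level in KPH2 2 to KPH2 4, none passed the edgeR test, and their median log2 fold change was -0.55. Their summed level was 475 to 812 CPM in KP tumours, 355 CPM in KPH2 1 and 463 to 476 CPM in KPH2 2 to KPH2 4. Notch4 per 100 counts of the endothelial markers was 11.2, 4.93, 8.99 and 12.5 in KP 5 to KP 8, 4.82 in KPH2 1, and 8.03, 4.45 and 6.04 in KPH2 2 to KPH2 4. On this scale the groups overlapped, with an exact permutation p of 0.2 over 7 tumours and 0.114 over 8. Dll4 per 100 endothelial counts averaged 3.12 ± 0.960 (SD, n = 4) over KP tumours and 2.51 ± 0.775 (SD, n = 3) over KPH2 2 to KPH2 4 (exact permutation p = 0.514, and 0.543 with KPH2 1). With the endothelial score as a covariate over the 7 tumours the fitted log2 fold change was -1.02 for Notch4, -0.033 for Dll4, -0.13 for Nrarp, 1.65 for Jag1 and 3.86 for Heyl, none of which passed the edgeR test.

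The 10 mural markers had a median log2 fold change of -0.50, with 0 of 10 higher and 1, Cnn1, past the edgeR test. Their summed level was 783 to 1506 CPM in KP tumours, 406 CPM in KPH2 1, and 554, 1346 and 623 CPM in KPH2 2 to KPH2 4. Heyl per 100 mural counts was 0.377, 1.57, 1.58 and 0.838 in KP 5 to KP 8, 2.52 in KPH2 1, and 20.0, 5.04 and 7.26 in KPH2 2 to KPH2 4. Every KPH2 tumour, KPH2 1 included, was above every KP tumour on this scale. In KPH2 1 this came with the lowest mural sum, since its Heyl level of 10.2 CPM was within the KP range. The authors report myofibroblastic differentiation in tumours of this model, and which cells the mural markers came from was not tested. The exact permutation p was 0.0286 with 7 and with 8 tumours, and 0.0571 and 0.114 after adjustment over the 4 ratios computed. Heyl per 100 endothelial counts was 1.05, 1.95, 3.05 and 0.941 in KP 5 to KP 8, 2.88 in KPH2 1, and 23.8, 14.7 and 9.49 in KPH2 2 to KPH2 4. On that scale KPH2 1 lay within the KP range, and the exact permutation p was 0.0286 over 7 tumours (0.0571 after adjustment) and 0.0571 over 8 (0.114 after adjustment). With the mural score as a covariate over the 7 tumours the fitted log2 fold change was 3.17 for Heyl (edgeR adjusted p = 0.318) and 0.52 for Dll1 (edgeR adjusted p = 0.822).

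Skeletal muscle markers were, like Heyl, Dll1, Jag1 and Hes6, higher by fit. All 17 had a higher fitted level in KPH2 2 to KPH2 4, with 2 past the edgeR test and a median log2 fold change of 2.18. Their summed level was 1740 to 3149 CPM in KP tumours, 1423 CPM in KPH2 1, and 11831, 18529 and 4113 CPM in KPH2 2 to KPH2 4. The 6 markers of myoblasts and satellite cells summed to 7.35, 63.9, 39.9 and 12.8 CPM in KP 5 to KP 8, to 5.12 CPM in KPH2 1, and to 296, 653 and 187 CPM in KPH2 2 to KPH2 4. Megf10 was the largest part of the sum in every tumour, at 39.6 CPM in KP 7 and 470 CPM in KPH2 3. Of the 6, 4 were tested, all higher by fit, with 1, Myf5, past the edgeR test. Pax7 and Chrdl2 had too few counts, and Pax7 was at 2.69 CPM in KP 6 and 0.360, 4.10 and 0.225 CPM in KPH2 2 to KPH2 4. KPH2 1, in which Heyl, Dll1, Jag1 and Hes6 were within or below the KP range, was also the tumour with the lowest sum of either list. Its endothelial and mural sums, 355 and 406 CPM, were the lowest too. KP 5 had the highest muscle sum of the KP tumours (3149 CPM) with the lowest Heyl and Jag1 (4.98 and 35.5 CPM). Among KPH2 2 to KPH2 4, KPH2 4 had the lowest muscle sum (4113 CPM), with the highest Jag1 (153 CPM) but the lowest Heyl, Dll1 and Hes6. With the muscle score as a covariate over the 7 tumours the fitted log2 fold change was 3.40 for Heyl (edgeR adjusted p = 0.481), 1.78 for Jag1 (0.249), 0.79 for Dll1 (0.891), 1.25 for Hes6 (0.624) and 0.081 for Neurl1a (0.980), and no Notch gene passed the edgeR test. The part of muscle content in these differences was not tested beyond this fit. Of the other lists, 7 matched macrophage markers were all lower by fit, with none past the edgeR test, and their sum was 1845 to 3789 CPM in KP tumours, 1831.5 CPM in KPH2 1 and 1353.5, 1896 and 1987 CPM in KPH2 2 to KPH2 4.

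**Figure D5:**
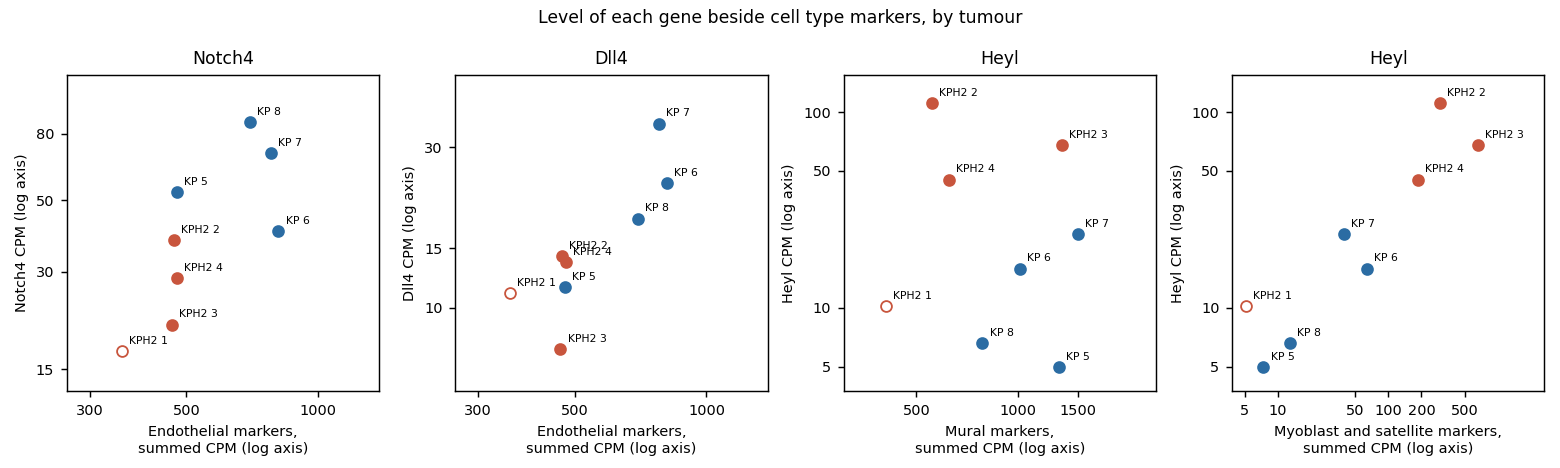
Level of Notch4, Dll4 and Heyl in each tumour (CPM) against the summed level of endothelial, mural or myoblast and satellite cell markers (CPM), both on logarithmic axes, with KP tumours in blue, KPH2 2 to KPH2 4 in filled red and KPH2 1 as an open circle. Notch4 and Dll4 are low in the KPH2 tumours, whose endothelial sums are 355 to 476 CPM. KP 5, with a sum of 475 CPM, has Dll4 within the KPH2 range (11.5 CPM) and Notch4 above it (53.0 CPM). Heyl and the myoblast and satellite sum are both highest in KPH2 2 to KPH2 4 (45.2 to 111 and 187 to 653 CPM). Megf10 is the largest part of that sum in every tumour.

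The tested genes with the profile most like that of a member over the 8 tumours were taken by the distance between log2 CPM profiles scaled to mean 0 and SD 1, where a smaller distance is a closer match. For Heyl they were Fuk (0.477), Ctnnd1 (0.749) and Msi2 (0.838), and the median distance of all genes was 3.79. For Notch4 they were Ly6a (0.581), Wdr7 (0.676) and Sept8 (0.724), with a median of 3.77. All points share the 8 libraries and their scaling.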

How the data were processed

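Mouse tumour RNA came from fixed sections, and stranded libraries were made after removal of ribosomal RNA. The authors aligned the reads with STAR 2.4 to GRCm38 and deposited raw counts per RefSeq gene from htseq-count (HTSeq 0.6.1). The authors also deposited log2 values from the regularized log transformation of DESeq2 1.6, used here for 7 tumours as an alternative. The table over 8 tumours was not used.

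Counts were fitted with edgeR 4.0.16 in R 4.3.3 (TMM, minimum count 10, minimum total count 15, robust quasi-likelihood test, no covariates). P-values were adjusted by Benjamini-Hochberg over all genes tested, with a threshold of 0.05. Log2 CPM used a prior count of 2. CPM values used the scaling over 8 tumours. Single values were compared by exact 2-sided permutation. The biological coefficient of variation was 0.313 over 7 tumours and 0.347 over 8. Fits were tested on simulated data. DESeq2 1.42.0 and limma 3.58.1 were alternatives. Total counts of 6463221 to 13155510 set the counting precision.

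The members, the gene lists and the tests were chosen with earlier results of these data known. All 10 members are named, as are, of the other pathway genes, those past the threshold and the 6 with the smallest p, and the 3 genes with the profile closest to each of the 2 members with the smallest p. Adgre1 was not matched by symbol. By the labels each tumour is a separate sample. A further allele that both groups carry is not reported here. Positions are from RefSeq on GRCm38.p6.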

Additional observations from a re-analysis of the deposited data

Results flagged for a closer look

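Hes1 was counted at 8.91 CPM in KP 5, far below the other KP tumours, which lay from 25.4 to 28.3 CPM. The gap took up 0.852 of the group's range, above the critical value of 0.829 for 4 samples. Of the 20 groups of values examined this was the 1 that stood out, and chance gives about 1 in 20.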

How the results depend on the processing

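No paired analysis was possible because the replicate numbers of KP tumours (5 to 8) and KPH2 tumours (1 to 4) are not shared. Over the 7 tumours 0 of the 10 Notch genes passed in edgeR under every alternative scaling, filter, covariate and left-out tumour, while DESeq2 called 2 and limma on the transformed values 1. Over all 8 tumours DESeq2 called 2 and edgeR 0. The count of other pathway genes, 1 in the edgeR fit, was 2 without a filter or with DESeq2 and 0 with KPH2 1 included or with the muscle or mural score as a covariate. It ranged from 0 to 1 when 1 tumour was left out. Among these fits Hes6 passed only without KPH2 4 (edgeR adjusted p = 0.0169) and reached 0.0978 without KPH2 2. The 1 gene called without KP 5 was Tle4 (edgeR adjusted p = 0.0477), as with the endothelial score (0.0479). The count over all genes, 292, was 1175 with DESeq2, 79, 11 and 3 with the endothelial, mural and muscle scores, 1 with KPH2 1 included, and 55 (without KPH2 2) to 349 (without KP 5) with 1 tumour left out. Of the called genes 63.4% were higher in KPH2 tumours in edgeR, 52.3% in DESeq2, 30.4% with the endothelial score, 90.9% with the mural score, and 52.4% (without KP 5) to 81.7% (without KPH2 4) with 1 tumour left out. Fitted log2 fold changes turned sign for Notch2 with the mural score (0.31), Dll4 with the muscle score (0.21), Jag2 with KPH2 1 included (-0.065) and Hey1 without KP 5 (-0.16), none of which passed the test, and the cause was not tested. The mural score and the ratios to markers were added after seeing the data. A leave-out fit leaves as few as 2 KPH2 tumours, and low counts limit Dll1, with 19 to 175 reads per tumour.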

Other observations

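Dlk1, a non-canonical ligand of the pathway that is imprinted and known from muscle and fat precursors, varied widely among tumours and was chosen after its values were seen. It was counted at 229, 45.8, 4.30 and 10.1 CPM in KP 5 to KP 8, at 227 CPM in KPH2 1, and at 1.26, 13.2 and 6.76 CPM in KPH2 2 to KPH2 4. KP 5 and KPH2 1 were alike and far above the rest. The fitted log2 fold change was -3.37 over 7 tumours (SE 1.42, edgeR adjusted p = 0.268) and -0.22 over all 8.

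KP 5 and KPH2 1 were also the tumours in which most members were lowest. KP 5 was the lowest KP tumour for 6 of the 10 genes (27.0% of all genes were lowest there), and KPH2 1 was the lowest KPH2 tumour for 9 of the 10, all but Dll4 (30.4% of all genes). Hes5, a Notch target of neural progenitors, was at 0 in all 8 tumours, which allows up to 0.228 to 0.464 CPM of the total counts (3 reads per tumour, counting error only). Hes2, Hes3, Hes7, Hey2, Dll3, Dtx1 and Rbpjl had too few counts to be tested.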
